A study of Rattus norvegicus with 14 samples.

Results

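Collagens, laminins and integrins are the gene families that build the extracellular matrix of the fetal rat testis and attach cells to it. The genes described here are the rows of the count table whose symbol is a collagen chain (Col, number, a, number), a laminin chain (Lama, Lamb or Lamc with a number) or begins with Itga or Itgb. That pattern took 79 of the 18174 genes in the table: 40 collagens, 10 laminins, 25 integrin subunits and 4 genes that are named after integrins but are not subunits (Itgb1bp1, Itgb1bp2, Itgb3bp and Itgbl1). A filter on low counts left 56 of them for testing, namely 31 collagens, 9 laminins, 13 integrin subunits and 3 of the other 4.

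Pregnant Harlan Sprague Dawley rats received dicyclohexyl phthalate (DCHP), a phthalate ester used as a plasticiser, by mouth in corn oil, by gavage, on gestational days 14 to 18. The doses were 100, 300, 600 and 900 mg/kg/day, and control dams received corn oil alone. Testes of the male fetuses were taken on gestational day 18 and pooled by litter, so a library stands for 1 litter: 3 litters in the vehicle group and at each of the 3 lower doses, and 2 litters at 900 mg/kg/day. Expression was measured by TempO-Seq, in which 2 neighbouring probes are joined where they meet on an RNA and the joined products are sequenced and counted, with an assay stated to cover 21119 protein-coding genes. Levels are given as CPM, a gene's count scaled to a common library size after TMM normalization. Because a gene's count depends on its own probes, a level is read between litters of the same gene or list; sums and ratios over genes are sums and ratios of counts and do not rank the genes by RNA.

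In the fetal testis, Sertoli cells and germ cells lie inside cords that are wrapped by a basement membrane and by peritubular myoid cells, with Leydig cells, other interstitial cells and blood vessels outside. The basement membrane is a sheet of type IV collagen and laminin networks linked by nidogen and perlecan. Fibrillar collagens, type VI collagen and fibril-associated collagens form the interstitial matrix around the cords and vessels. Integrins are cell-surface receptors made of 1 alpha and 1 beta subunit, and the pair decides whether a cell binds collagen, laminin, fibronectin or other ligands.

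The 14 libraries held between 5558873 and 11272861 counts. Marker genes of testis cells were counted in every library: summed CPM was 1163 to 1529 for Sertoli markers, 1046 to 1433 for germ cell markers and 1429 to 11373 for fetal Leydig markers. The fetal Leydig sum was lower at higher doses. It was 6203 to 11373 in the vehicle litters, 3940 to 6671 at 100, 3310 to 4340 at 300, 1951 to 4115 at 600 and 1429 and 1767 at 900 mg/kg/day. Its part in the members' values was not tested. Sums were 1.02 to 4.51 for cartilage markers and 1.85 to 18.6 for liver markers, and each list rests on its own probes. Markers of tissues near the testis or of blood were not absent: the sum was 25.9 to 86.1 for skeletal muscle, 77.0 to 126 for mesothelium, 116 to 186 for mesonephric and epididymal epithelium and 1551 to 7272 for erythroid cells. Vehicle replicate 1 and 100 mg/kg/day replicate 1 stood apart from the other litters of their own groups. On the first principal component of the whole table, which held 36.1% of the variance, they scored -42.6 and -65.1, the 900 mg/kg/day litters scored -38.2 and -22.8, and the other 10 litters scored between -1.84 and 35.6. Most single-gene estimates, and the counts of members called, are therefore given with and without those 2 litters. Medians over families and lists, and the counts for lists of related genes, are given with all 14 litters only. The samples are whole tissue, so fewer cells of a type and less RNA per cell cannot be told apart, and the p-values measure the spread between litters.

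No collagen, laminin or integrin gene passed an adjusted p of 0.05 at any dose against vehicle, or between the 2 highest doses (edgeR quasi-likelihood test, adjusted over all 12719 genes tested). The background was sparse too: among all genes tested, 0% passed at 100, 0.0472% at 300, 0.22% at 600, 0.252% at 900, and 0% between the 2 highest doses. With a straight line fitted over all 5 doses, 1 member passed, the collagen Col14a1, where 0.425% of all genes passed in either direction and 0.0943% passed as higher. At an unadjusted p under 0.05, 0 members passed at 100, 1 at 300, 3 at 600, 7 at 900 (6 higher, 1 lower), 8 in the dose trend (7 higher, 1 lower), and 5 between the 2 highest doses. The same share over all genes was 3.4% at 100, 3.65% at 300, 4.79% at 600, 4.99% at 900, 5.09% in the dose trend, and 8.32% between the 2 highest doses. The members' own shares were 0% at 100, 1.79% at 300, 5.36% at 600 and 12.5% at 900 mg/kg/day. They were 14.3% in the dose trend and 8.93% between the 2 highest doses. DESeq2 also called 0 members at 100, 300 and 600 and between 900 and 600 mg/kg/day, and called Col14a1 at 900 mg/kg/day against vehicle, where it called 0.676% of all genes.

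**Figure D1:**
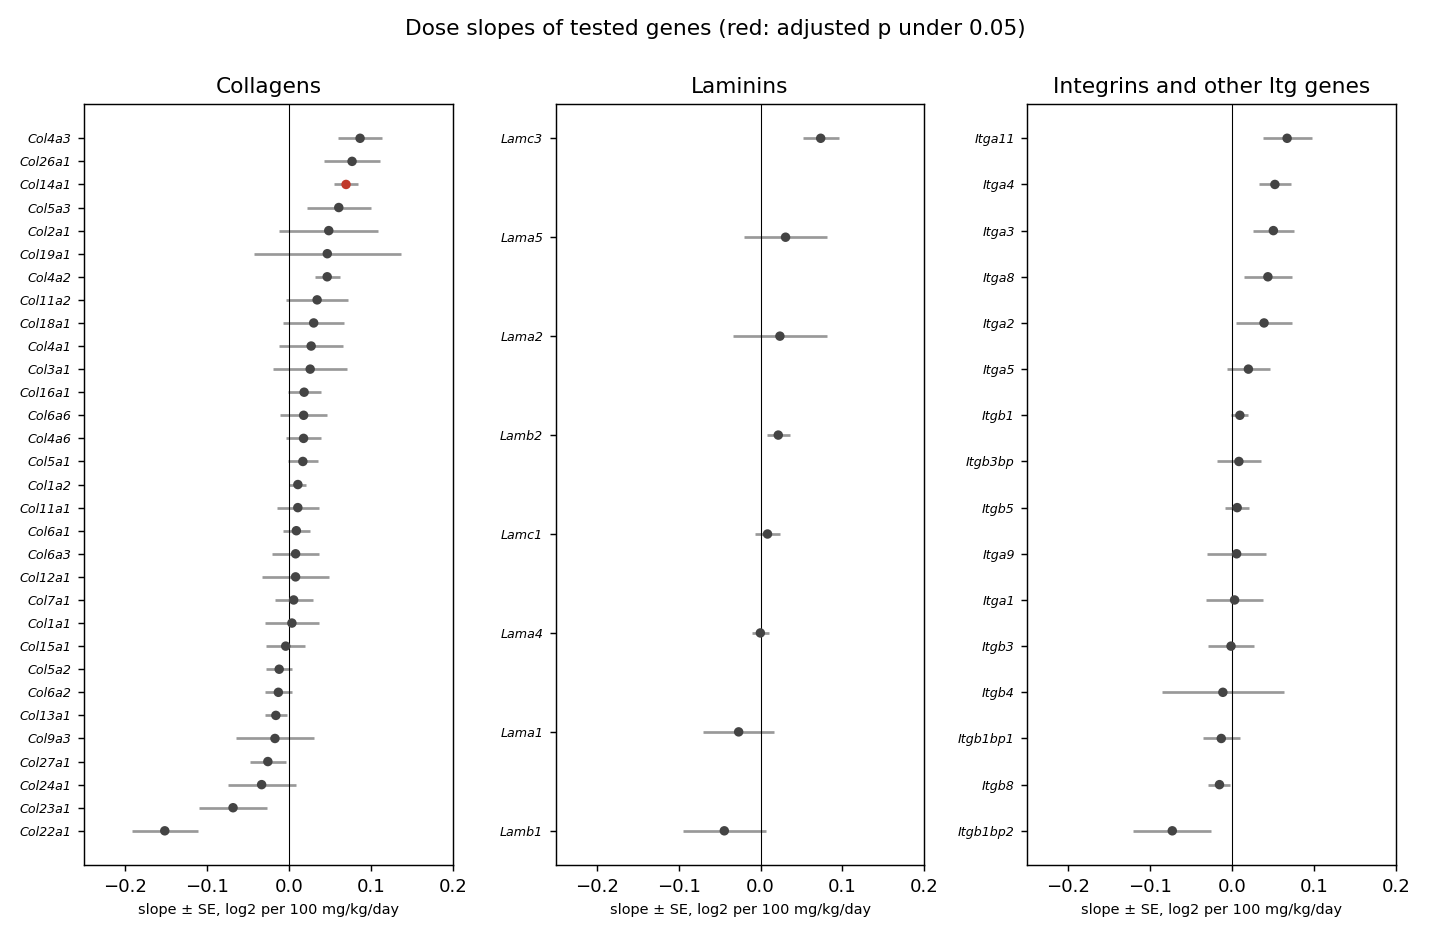
Dose slopes of tested genes, in log2 units per 100 mg/kg/day on the horizontal axis, with its standard error as a bar; the panels hold collagens, laminins, and integrins with the other Itg genes. Most bars reach 0, Col14a1 (red) is the 1 gene with an adjusted p under 0.05, and Col22a1 lies farthest to the left.

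With the 2 litters that stood apart left out (vehicle replicate 1 and replicate 1 at 100 mg/kg/day) the counts were larger. In this reduced fit 10 members passed at 900 mg/kg/day against vehicle, 10 between the 2 highest doses and 10 in the dose trend, each time 17.9% of the 56 tested. The same step raised the share over all genes to 16.7%, 14% and 11.8%, so the rise was for the most part one of the whole table. The 2 litters were left out after they were seen to resemble the 900 mg/kg/day litters. Where a gene shares that resemblance, the step by construction narrows the spread and sets the vehicle group farther from 900 mg/kg/day. The adjusted p-values of the reduced fit printed below for single genes carry that limit and are not separate evidence of a dose effect. The 10 at 900 mg/kg/day against vehicle were Col3a1, Col4a2, Col14a1, Col26a1, Itga4, Itga9 and Lamc3 on the higher side and Col6a2, Col24a1 and Lamb1 on the lower side.

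The collagens are described first, beginning with the fibril-associated collagens, which sit on the surface of collagen fibrils. Col14a1 (collagen XIV, chromosome 7, positions 86722094 to 86937215 on the plus strand of rn7) stood at 50.7, 38.3 and 48.9 CPM in the vehicle litters and at 47.7, 42.5 and 44.6 CPM at 100 mg/kg/day. It stood at 51.8, 52.7 and 62.3 CPM at 300, at 53.8, 52.4 and 65.5 CPM at 600, and at 74.0 and 69.5 CPM at 900 mg/kg/day. Every litter at 300 mg/kg/day or more lay above every vehicle and 100 mg/kg/day litter, and both 900 mg/kg/day litters lay above all others. Its slope was 0.07 ± 0.014 (SE) log2 units per 100 mg/kg/day, with an adjusted p of 0.0387. At 900 mg/kg/day against vehicle the mean was 71.7 ± 3.18 CPM (SD, n = 2) against 46.0 ± 6.70 CPM (SD, n = 3), a log2 difference of 0.64 ± 0.15 (SE). The adjusted p of that single contrast was 0.185. The reduced fit gave a slope of 0.07 (adjusted p = 0.00805) and a difference of 0.69 (adjusted p = 0.00743). The slope kept its sign in all 14 fits that left out 1 litter, from 0.063 to 0.075, but its adjusted p, from 0.0311 to 0.237, missed 0.05 in 9 of them: without vehicle replicates 2 or 3, 100 mg/kg/day replicates 2 or 3, 300 mg/kg/day replicates 1 or 2, 600 mg/kg/day replicate 3, or either 900 mg/kg/day litter.

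Col22a1 (collagen XXII, known from tissue junctions such as that of muscle and tendon; chromosome 7, positions 103731037 to 103968463, minus strand) had values in the other direction. It stood at 7.15, 4.28 and 4.46 CPM in the vehicle litters, at 2.87, 2.67 and 4.49 CPM at 100, and at 2.47, 3.07 and 2.55 CPM at 300 mg/kg/day. At 600 mg/kg/day it stood at 1.5003, 2.95 and 1.48 CPM and at 900 mg/kg/day at 1.20 and 2.83 CPM. With the exception of 100 mg/kg/day replicate 3, every treated litter lay below every vehicle litter. The slope was -0.15 ± 0.04 (SE) with an unadjusted p of 0.00174 and an adjusted p of 0.185, and the log2 difference at 900 mg/kg/day was -1.35 ± 0.42 (SE, adjusted p = 0.517). In the reduced fit the slope was -0.13 (adjusted p = 0.0425) and the difference -1.09 (adjusted p = 0.0892). These levels rest on a mean of 27.7 counts per library. With dose entered as log2(dose/100 + 1), Col22a1 was the 1 member called and Col14a1 was not, and 0.613% of all genes were called.

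The other fibril-associated collagens gave no such order. Col16a1, which is found near basement membranes and fibrils, lay between 11.6 and 20.2 CPM in the 14 litters, Col12a1 between 3.28 and 9.06 CPM, and Col9a3, known from cartilage, between 1.12 and 5.75 CPM. Col19a1 ranged from 0 to 4.05 CPM. Col9a2 and Col20a1 did not pass the filter. Of the 6 tested fibril-associated collagens, 1 rose in the trend, 0 fell, and the median log2 difference at 900 mg/kg/day was 0.13.

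Type IV collagen is the network collagen of basement membranes; its alpha 1 and alpha 2 chains assemble together, and their genes lie head to head. Of the 76 bases between the RefSeq starts of Col4a1 and Col4a2 (assembly GRCr8, chr16:84885521-84885596, plus strand), all are shown, because the 2 genes were measured as partners below. Capitals mark the GC box (GGGCGG, here on its reverse strand as CCGCCC).
Col4a1-Col4a2 gap: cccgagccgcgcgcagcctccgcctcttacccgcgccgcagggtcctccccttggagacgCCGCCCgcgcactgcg
This short stretch holds 1 GC box and no CCAAT or TATAAA match on either strand. The count table's own rn7 coordinates place Col4a2 at positions 78047602 to 78183840 (minus strand) and Col4a1 at 78183533 to 78294413 (plus strand) of chromosome 16, where the annotated ends overlap.

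Col4a2 stood at 449, 391 and 336 CPM in the vehicle litters, at 432, 309 and 327 CPM at 100, and at 353, 380 and 376 CPM at 300 mg/kg/day. It stood at 379, 384 and 436 CPM at 600 and at 528 and 538 CPM at 900 mg/kg/day. The 2 litters at 900 mg/kg/day were the highest of the 14, while the other groups overlapped. The log2 difference at 900 mg/kg/day against vehicle was 0.44 ± 0.15 (SE, adjusted p = 0.641), and 0.42 ± 0.15 against 600 mg/kg/day (adjusted p = 0.508). The slope was 0.05 ± 0.015 (SE) with an unadjusted p of 0.0068 and an adjusted p of 0.422. The reduced fit put the difference from vehicle at 0.52 (adjusted p = 0.00392) and the slope at 0.06 (adjusted p = 0.00541).

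Col4a1 lay between 2.40 and 7.32 CPM, with 6.25, 6.87 and 3.31 CPM in the vehicle litters and 6.75 and 6.27 CPM at 900 mg/kg/day, so those groups overlapped. Col4a3, a chain of specialised basement membranes such as that of the kidney glomerulus, stood at 1.49, 2.59 and 2.51 CPM in the vehicle litters and at 4.46 and 2.92 CPM at 900 mg/kg/day. Its slope was 0.09 ± 0.027 (SE) with an unadjusted p of 0.00504 and an adjusted p of 0.357, on a mean of 23.1 counts per library, and at 900 mg/kg/day its log2 difference was 0.74 ± 0.31 (SE, adjusted p = 0.852). Its slope was 0.07 in the reduced fit (adjusted p = 0.142). Col4a6 lay between 7.95 and 14.3 CPM. All 4 measured type IV chains had a positive estimate at 900 mg/kg/day against vehicle, with a median of 0.34. Over all genes tested 6753 of 12719 estimates were positive. With all 14 litters 0 of 4 chains passed the adjusted test. Endothelial marker genes, 9 of 10 measured and none at 0 in every library, summed to 361 to 427 CPM in the vehicle litters, 373 to 416 at 100, 386 to 408 at 300, 379 to 390 at 600 and 416 and 423 CPM at 900 mg/kg/day; their part in the type IV values was not tested.

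**Figure D2:**
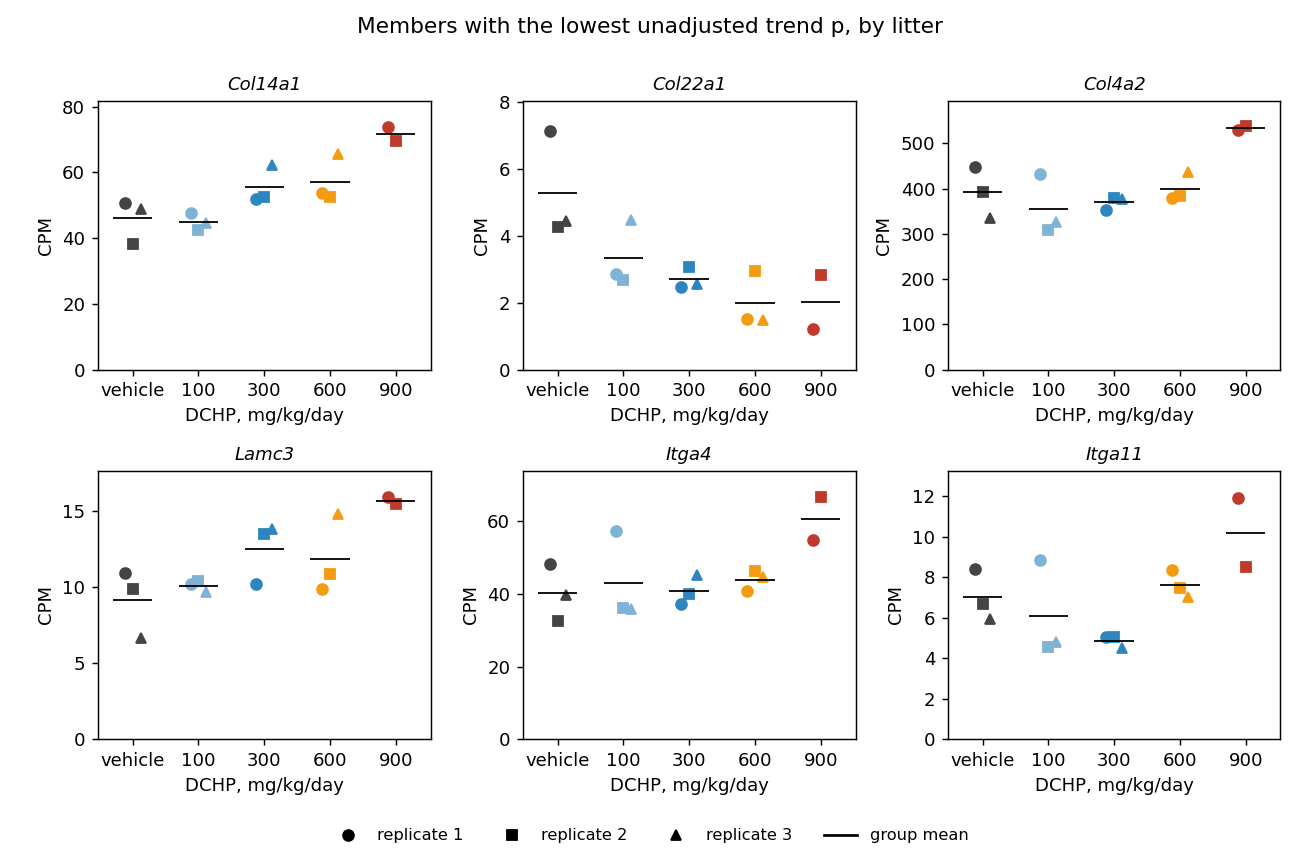
CPM of 6 genes with an unadjusted trend p under 0.05, plotted by dose group (vehicle is corn oil); each point is 1 litter, the marker gives its replicate and the bar the group mean. In Col14a1, Col4a2 and Lamc3 both 900 mg/kg/day litters lie above every other litter, in Col22a1 every treated litter but 100 mg/kg/day replicate 3 lies below the vehicle litters, and in Itga4 and Itga11 the 100 mg/kg/day replicate 1 point lies near the 900 mg/kg/day points.

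The fibrillar collagens, which form the tensile fibres of interstitial matrix, had 11 measured genes, and 0 of 11 passed at any dose with all 14 litters. Col1a2 (a chain of type I collagen) was among the steadiest genes of the families: 3772, 4086 and 3467 CPM in the vehicle litters, 3215 to 3960 CPM at 100, 3592 to 3856 CPM at 300, 3448 to 3916 CPM at 600, and 3988 and 3982 CPM at 900 mg/kg/day. Its highest litter was 1.27 times its lowest. The other type I chain, Col1a1, was counted at only 1.80 to 4.35 CPM, with a mean of 25.5 counts per library, so its values are far less precise.

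Col3a1 (type III collagen, of soft and vascular tissue; chromosome 9, positions 47374593 to 47410548, plus strand) differed 3.82-fold between its lowest and highest litter. It stood at 5323, 1755 and 2677 CPM in the vehicle litters, at 5954, 1559 and 2073 CPM at 100, and at 2183, 3151 and 2747 CPM at 300 mg/kg/day. It stood at 2129, 2485 and 2081 CPM at 600 and at 5144 and 4180 CPM at 900 mg/kg/day. Replicate 1 of the vehicle and of the 100 mg/kg/day group thus stood with the 900 mg/kg/day litters, and the other 10 litters lay lower. The log2 difference was 0.52 ± 0.49 (SE) at 900 mg/kg/day against vehicle (adjusted p = 0.852) and 1.06 ± 0.49 against 600 mg/kg/day (adjusted p = 0.508). In the reduced fit these were 1.04 (adjusted p = 0.0192) and 1.03 (adjusted p = 0.0150). The ratio of Col3a1 to Col1a2 counts in the same litter ran from 0.429 in vehicle replicate 2 to 1.504 in 100 mg/kg/day replicate 1.

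Col24a1, a fibrillar collagen described in developing bone and cornea, had the opposite order of litters. It was at 7.74, 12.7 and 13.7 CPM in the vehicle litters, at 4.44, 15.9 and 11.6 CPM at 100, and at 6.75 and 8.07 CPM at 900 mg/kg/day, while the 300 and 600 mg/kg/day litters lay between 11.19 and 16.3 CPM. Col5a3 was at 4.27, 2.59 and 2.74 CPM in the vehicle litters, at 5.09, 2.16 and 2.65 CPM at 100, and at 6.38 and 4.21 CPM at 900 mg/kg/day. Col5a1 lay between 14.221 and 22.5 CPM and Col5a2 between 15.3 and 21.8 CPM. The type V and XI chains regulate fibril thickness; Col11a1 lay between 11.25 and 20.0 CPM and Col11a2 between 1.79 and 5.18 CPM. Col27a1 lay between 10.9 and 21.9 CPM and Col2a1, the main cartilage collagen, between 0.397 and 3.58 CPM.

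Type VI collagen forms beaded microfibrils from an alpha 1, an alpha 2 and 1 further chain, and here the alpha 1 and alpha 2 genes had opposite orders of litters. Col6a1 stood at 870, 761 and 676 CPM in the vehicle litters, at 878, 584 and 572 CPM at 100, and at 847 and 827 CPM at 900 mg/kg/day; the 300 and 600 mg/kg/day litters lay between 616 and 792 CPM. Col6a2 stood at 1131, 1649 and 1426 CPM in the vehicle litters, at 1016, 1299 and 1368 CPM at 100, and at 1087 and 1202 CPM at 900 mg/kg/day, with 1275 to 1527 CPM at 300 and 600 mg/kg/day. Vehicle replicate 1, 100 mg/kg/day replicate 1 and both 900 mg/kg/day litters were thus the 4 highest for Col6a1 and the 4 lowest for Col6a2. The ratio of Col6a1 to Col6a2 counts was 0.688 to 0.863 in those 4 litters and 0.418 to 0.578 in the other 10. Counts were not whole numbers in 14 libraries for Col6a1 and in 12 for Col6a2, and how such values arose is not given in the sources used here.

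Col6a3, the large further chain, followed Col6a1: 99.1, 90.6 and 79.4 CPM in the vehicle litters, 129, 52.4 and 58.5 CPM at 100, 61.8 to 72.2 CPM at 300 and 600, and 115 and 93.8 CPM at 900 mg/kg/day. Its log2 difference between 900 and 600 mg/kg/day was 0.68 ± 0.29 (SE, adjusted p = 0.508), and 0.65 in the reduced fit (adjusted p = 0.00298). Col26a1, a collagen first described in testis and ovary, stood at 9.73, 5.18 and 5.49 CPM in the vehicle litters, at 8.75, 3.94 and 6.02 CPM at 100, and at 13.3 and 10.7 CPM at 900 mg/kg/day. The 300 and 600 mg/kg/day litters lay between 4.25 and 9.02 CPM, so the 900 mg/kg/day litters were the highest of the 14. Its slope was 0.08 ± 0.035 (SE, adjusted p = 0.923) and its log2 difference at 900 mg/kg/day against vehicle was 0.81 ± 0.37 (adjusted p = 0.852). The reduced fit gave 0.12 (adjusted p = 0.0216) and 1.13 (adjusted p = 0.0208) for the same values. Col6a6 lay between 4.81 and 10.7 CPM, and Col7a1, the anchoring fibril collagen, between 3.56 and 6.35 CPM. Col6a4, Col6a5 and Col28a1 did not pass the filter.

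Col15a1 and Col18a1 are the multiplexins, collagens with glycosaminoglycan chains that lie in or beside basement membranes. Col15a1 stood at 31.0, 60.0 and 42.3 CPM in the vehicle litters, at 26.6, 43.6 and 46.3 CPM at 100, and at 35.4 and 41.4 CPM at 900 mg/kg/day. The spread between vehicle litters covered the values of all groups but 1 litter, 100 mg/kg/day replicate 1. Col18a1, the source of endostatin, lay between 1.55 and 4.50 CPM. The membrane-spanning collagens were Col13a1, at 50.1 to 70.6 CPM, and Col23a1, at 0.777 to 4.58 CPM. Col17a1, of epithelial hemidesmosomes, and the short chain collagens Col8a1, Col8a2 and Col10a1 did not pass the filter. The collagens' counts summed to 9996 ± 1696 CPM in the vehicle litters (SD, n = 3) and 11600 ± 634 CPM at 900 mg/kg/day (SD, n = 2), and the highest single litter was 100 mg/kg/day replicate 1 at 12657 CPM. Col3a1 supplied 19.3% to 47.0% of the sum, depending on the litter.

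Laminins are cross-shaped trimers of an alpha, a beta and a gamma chain, and the beta 1 and gamma 1 chains occur together in many of them. Their genes Lamb1 and Lamc1 had opposite orders of litters, so the 250 bases before each RefSeq start are shown (assembly GRCr8, Lamb1 chr6:53562846-53563095 on the plus strand, Lamc1 chr13:68051987-68052236 on the minus strand, each written in the direction of its gene). Capitals mark GC boxes, GGGCGG or its reverse CCGCCC; the first 2 of Lamc1 share 1 base.
Lamb1 upstream: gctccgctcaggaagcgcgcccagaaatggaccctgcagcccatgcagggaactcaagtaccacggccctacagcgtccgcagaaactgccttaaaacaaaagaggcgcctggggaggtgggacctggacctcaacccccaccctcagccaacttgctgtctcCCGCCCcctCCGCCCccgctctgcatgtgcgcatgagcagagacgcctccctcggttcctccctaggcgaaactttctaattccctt
Lamc1 upstream: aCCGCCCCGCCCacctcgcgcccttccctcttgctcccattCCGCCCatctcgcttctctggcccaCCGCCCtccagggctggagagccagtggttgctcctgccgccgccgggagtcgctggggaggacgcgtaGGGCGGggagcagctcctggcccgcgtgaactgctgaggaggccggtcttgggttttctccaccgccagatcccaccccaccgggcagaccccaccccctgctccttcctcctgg
Lamb1 had 2 GC boxes and Lamc1 5, and neither window held CCAAT or TATAAA on either strand. Of 33469 RefSeq rat promoters, 30.5% held a GC box in the 250 bases before the start, 34.0% held CCAAT (or ATTGG) and 12.9% held TATAAA (or TTTATA). Among the 46 tested collagen, laminin and integrin genes with an entry, 28 held a GC box, 10 held CCAAT and 3 held TATAAA. The 33469 promoters were not limited to tested genes, so the 2 sets are unlike and no excess is read from them. A match describes the letters only.

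Lamb1 (chromosome 6, positions 47835525 to 47902586, plus strand of rn7) differed 4.47-fold between litters. It stood at 86.8, 286 and 181 CPM in the vehicle litters, at 64.0, 255 and 204 CPM at 100, and at 216, 176 and 215 CPM at 300 mg/kg/day. It stood at 229, 181 and 226 CPM at 600 and at 83.6 and 124 CPM at 900 mg/kg/day. The 4 low litters were the 2 at 900 mg/kg/day together with replicate 1 of the vehicle and of the 100 mg/kg/day group. The log2 difference was -0.83 ± 0.50 (SE) at 900 mg/kg/day against vehicle (adjusted p = 0.852) and -1.03 ± 0.50 against 600 mg/kg/day (adjusted p = 0.508). In the reduced fit it was -1.19 against vehicle (adjusted p = 0.0149) and -1.06 against 600 mg/kg/day (adjusted p = 0.0207).

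Lamc1 (chromosome 13, positions 65374372 to 65501493, minus strand) had the reverse order with a narrow range, 1.502-fold. It stood at 496, 402 and 401 CPM in the vehicle litters, at 501, 369 and 359 CPM at 100, and at 464 and 491 CPM at 900 mg/kg/day, with 334 to 413 CPM in the 300 and 600 mg/kg/day litters. The ratio of Lamb1 to Lamc1 counts was 0.128 to 0.253 in the 4 litters where Lamb1 was low and 0.451 to 0.711 in the other 10. Lamb1 counts were not whole in 11 libraries and Lamc1 counts were whole in all.

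Lamc3, a gamma chain found in some basement membranes, had a positive slope that did not pass the adjusted test with all 14 litters. It stood at 10.9, 9.85 and 6.63 CPM in the vehicle litters, at 10.19, 10.4 and 9.69 CPM at 100, and at 10.21, 13.5 and 13.8 CPM at 300 mg/kg/day. It stood at 9.88, 10.9 and 14.8 CPM at 600 and at 15.9 and 15.5 CPM at 900 mg/kg/day. The 900 mg/kg/day litters were the highest of the 14. The slope was 0.07 ± 0.022 (SE) with an unadjusted p of 0.0039 and an adjusted p of 0.314, and the log2 difference at 900 mg/kg/day was 0.78 ± 0.24 (SE, adjusted p = 0.486). The reduced fit gave a slope of 0.08 (adjusted p = 0.0400) and a difference of 0.89 (adjusted p = 0.0205).

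These other laminin chains stayed within overlapping ranges. Lama4, an alpha chain of vascular laminins, was steady at 329 to 421 CPM over all litters, a 1.28-fold range, with 385 ± 31.5 CPM (SD, n = 3) in the vehicle group and 379 ± 41.2 CPM (SD, n = 2) at 900 mg/kg/day. Lamb2, a beta chain of mature basement membranes, lay between 50.03 and 77.4 CPM, and its lowest litter was 100 mg/kg/day replicate 1. Lama1, a chain of early embryonic basement membranes, lay between 1.224 and 4.30 CPM, Lama2, the chain of muscle laminin, between 0.466 and 3.00 CPM, and Lama5 between 0.381 and 3.68 CPM. Lamb3 did not pass the filter. Summed laminin counts were 1089 ± 103 CPM in the vehicle litters (SD, n = 3) and 1058 ± 91.0 CPM at 900 mg/kg/day (SD, n = 2).

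Among the integrins, the alpha 4 and alpha 9 subunits, which bind fibronectin, VCAM-1 and tenascin, are described first. Itga4 stood at 48.2, 32.6 and 39.8 CPM in the vehicle litters, at 57.2, 36.1 and 35.9 CPM at 100, and at 37.1, 40.0 and 45.2 CPM at 300 mg/kg/day. It stood at 40.8, 46.2 and 44.6 CPM at 600 and at 54.7 and 66.7 CPM at 900 mg/kg/day. One 900 mg/kg/day litter was the highest of all, and the other lay below 100 mg/kg/day replicate 1. The slope was 0.05 ± 0.020 (SE) with an unadjusted p of 0.0186 and an adjusted p of 0.712, and at 900 mg/kg/day the log2 difference was 0.60 ± 0.22 (SE, adjusted p = 0.760). In the reduced fit the slope was 0.08 (adjusted p = 0.00588) and the difference 0.72 (adjusted p = 0.00599).

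Itga9 stood at 130, 60.4 and 65.8 CPM in the vehicle litters, at 132, 49.4 and 61.3 CPM at 100, and at 115 and 86.1 CPM at 900 mg/kg/day. All 6 litters at 300 and 600 mg/kg/day lay between 58.6 and 69.9 CPM. The log2 difference was 0.24 ± 0.37 (SE) at 900 mg/kg/day against vehicle (adjusted p = 0.871) and 0.72 ± 0.37 against 600 mg/kg/day (adjusted p = 0.508), and in the reduced fit 0.64 (adjusted p = 0.00885) and 0.69 (adjusted p = 0.00455). Its partner Itgb1, the beta subunit shared by most matrix-binding integrins, was steady at 413 to 543 CPM, a 1.31-fold range, so the ratio of Itga9 to Itgb1 counts ran from 0.0929 to 0.320.

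**Figure D3:**
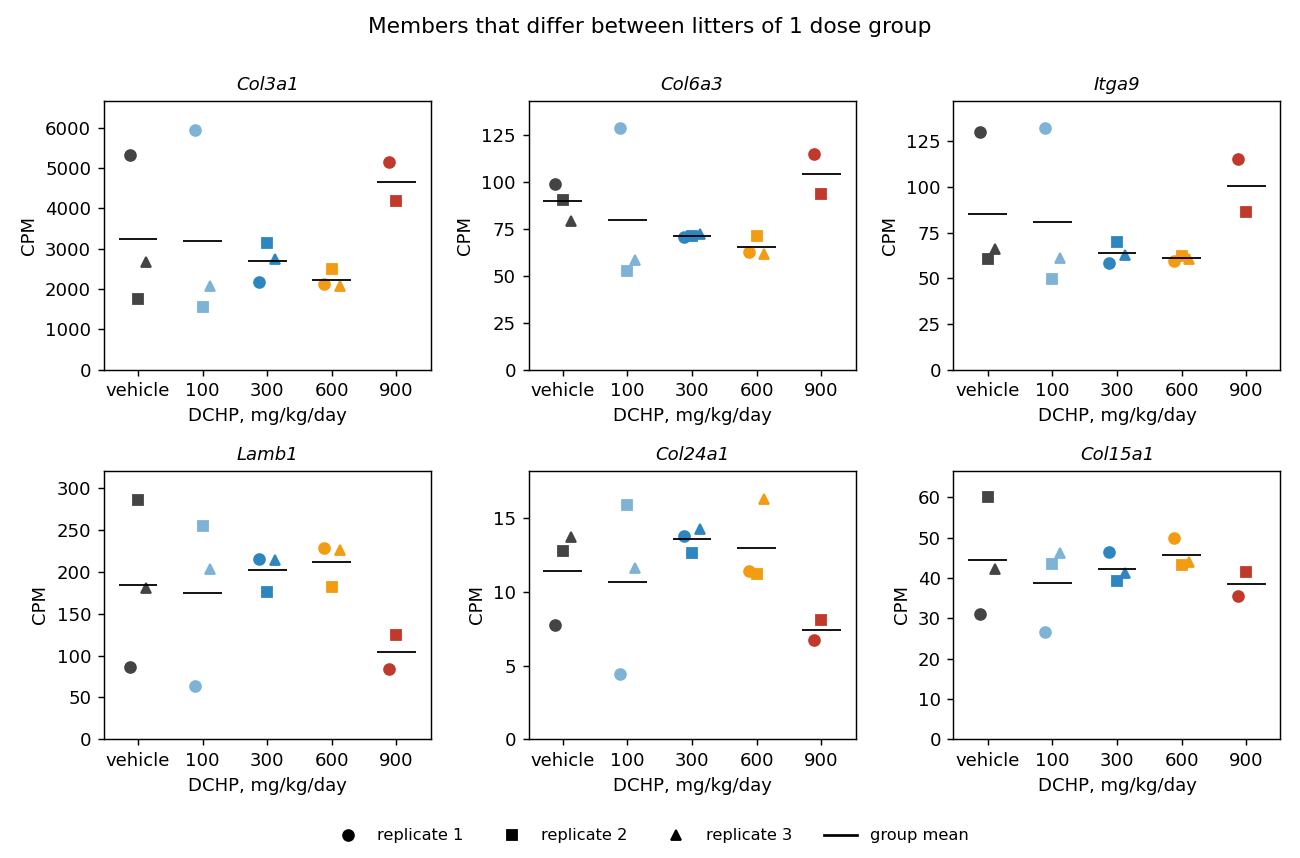
CPM of 6 genes that differ between litters of the same dose group, plotted by dose (vehicle is corn oil); points are litters, markers give the replicate and bars the group mean. In Col3a1, Col6a3 and Itga9 the vehicle and 100 mg/kg/day replicate 1 points lie with the 900 mg/kg/day litters at the top, and in Lamb1 and Col24a1 at the bottom.

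Of the collagen-binding alpha subunits, Itga11, a receptor of fibroblasts for fibrillar collagen, stood at 8.44, 6.67 and 5.94 CPM in the vehicle litters and at 8.88, 4.57 and 4.79 CPM at 100 mg/kg/day. It stood at 5.05, 5.03 and 4.50 CPM at 300, at 8.38, 7.46 and 7.03 CPM at 600, and at 11.9 and 8.50 CPM at 900 mg/kg/day. The 300 mg/kg/day litters lay below the vehicle litters, so the order was not one of steady increase. The slope was 0.07 ± 0.030 (SE, unadjusted p = 0.0397, adjusted p = 0.923), and the log2 difference at 900 mg/kg/day against vehicle was 0.53 ± 0.28 (SE, adjusted p = 0.852). The reduced fit gave 0.10 (adjusted p = 0.0248) and 0.65 (adjusted p = 0.0660). Itga1 lay between 3.08 and 8.40 CPM and Itga2 between 1.02 and 3.13 CPM, and Itga10 did not pass the filter.

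Of the laminin receptors, Itga3 had a mean of 85.0 counts per library. It stood at 13.5, 8.86 and 7.66 CPM in the vehicle litters and at 14.6 and 10.99 CPM at 900 mg/kg/day, with overlapping groups. Itgb4, of hemidesmosomes, lay between 0.250 and 2.03 CPM on a mean of 7.21 counts per library, and Itga7 did not pass the filter. Itga6 is not analysed here. Among subunits that bind the RGD motif of fibronectin and related proteins, Itga5 stood at 9.73, 4.68 and 7.09 CPM in the vehicle litters and at 9.28 and 8.33 CPM at 900 mg/kg/day. Itga8, the nephronectin receptor subunit of mesenchymal cells, stood at 44.2, 78.6 and 53.6 CPM in the vehicle litters, at 31.6, 76.8 and 67.9 CPM at 100, and at 52.4 and 92.3 CPM at 900 mg/kg/day, so the 2 litters at the highest dose lay farther apart than the vehicle litters. Itgav and the platelet subunit Itga2b did not pass the filter.

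Of the other beta subunits, Itgb5 lay between 49.3 and 67.2 CPM, Itgb8, which activates latent TGF-beta, between 36.3 and 51.4 CPM, and Itgb3 between 7.62 and 15.9 CPM. All 7 leukocyte subunits (Itgad, Itgae, Itgal, Itgam, Itgax, Itgb2 and Itgb7) and the epithelial subunit Itgb6 did not pass the filter; the highest level of any of the 23 members left out was 1.85 CPM, for Itgb2. Of the genes that are not subunits, Itgb3bp, also a centromere protein, lay between 11.9 and 28.2 CPM, Itgb1bp1, which binds the beta 1 tail, between 9.28 and 16.6 CPM, and the muscle protein gene Itgb1bp2 between 0.622 and 2.41 CPM. Itgbl1 did not pass the filter. Summed integrin counts were 816 ± 50.7 CPM in the vehicle litters (SD, n = 3) and 906 ± 22.9 CPM at 900 mg/kg/day (SD, n = 2), and the 2 litters at 900 mg/kg/day, at 890 and 922 CPM, were the highest of the 14.

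**Figure D4:**
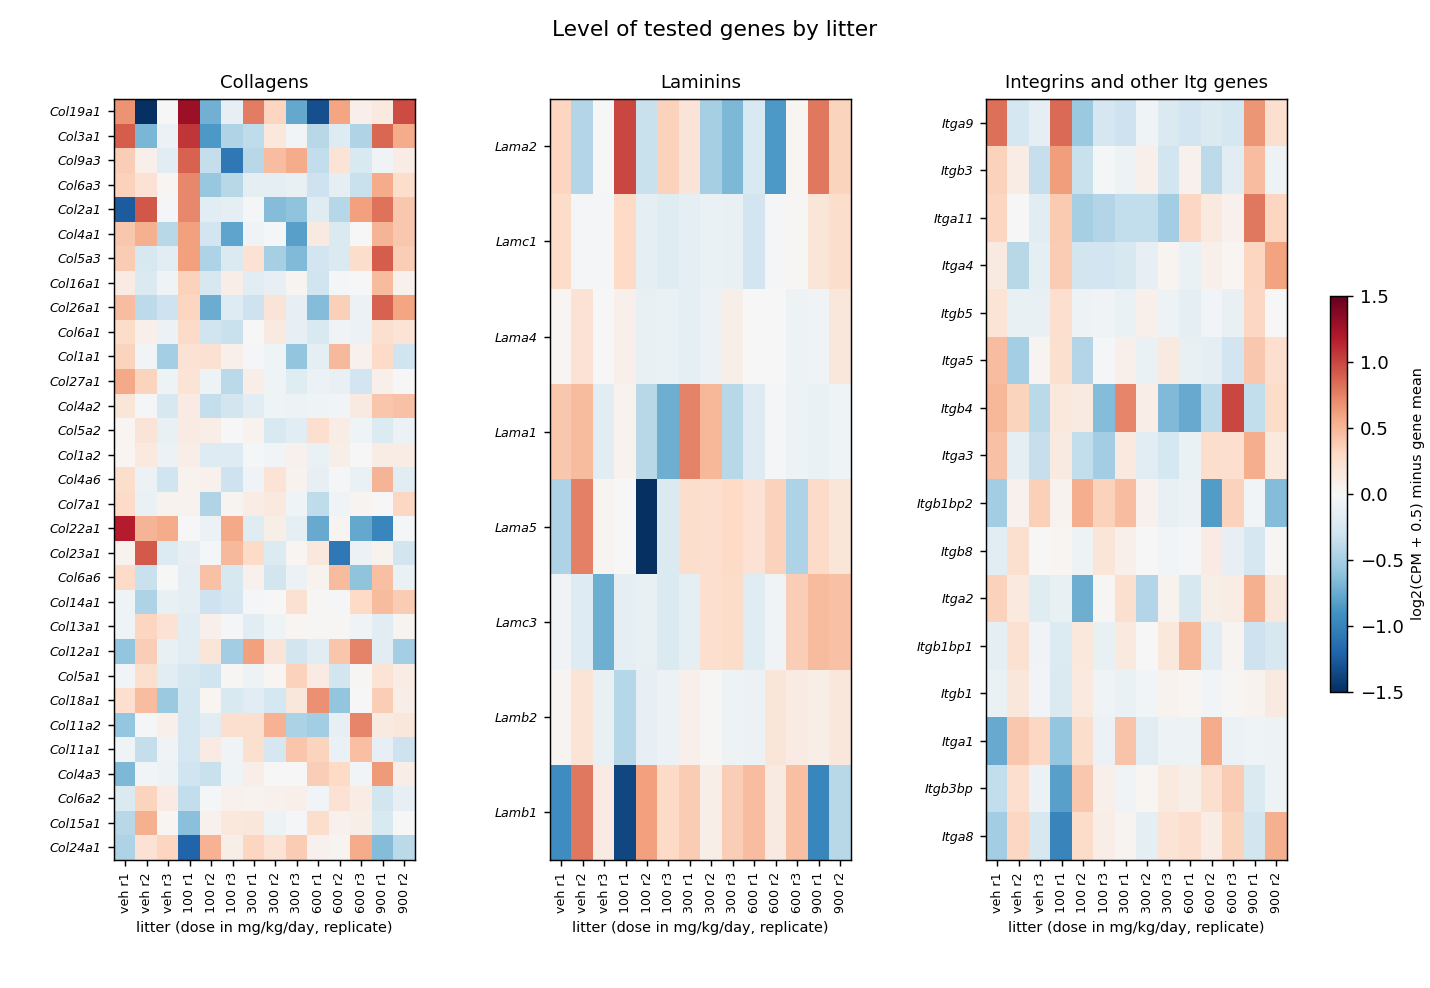
Level of tested genes in each litter as log2(CPM + 0.5) minus the gene's mean over the 14 litters; columns are litters in dose order, and the colour scale ends at 1.5 in each direction. The columns of vehicle replicate 1, 100 mg/kg/day replicate 1 and 900 mg/kg/day replicate 1 look alike for Col3a1, Col6a3 and Itga9 (red) and for Lamb1 and Col24a1 (blue), and no family changes colour as a block from left to right.

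Side by side, the families had small medians. At 900 mg/kg/day against vehicle the median log2 difference was 0.13 over the 31 tested collagens, 0.04 over the 9 laminins and 0.24 over the 13 integrin subunits, beside 0.02 over all genes tested. The estimate was above 0 for 20 of 31 collagens, 5 of 9 laminins and 10 of 13 integrin subunits. Over all genes tested it was above 0 for 6753 of 12719. The median slope was 0.011 in collagens, 0.0085 in laminins and 0.0093 in integrin subunits, beside 6.4e-05 over all genes tested. At the lower doses against vehicle the median of each family was below 0. At 100, 300 and 600 mg/kg/day it was -0.10, -0.07 and -0.06 in collagens and -0.08, -0.04 and -0.14 in laminins. In integrin subunits it was -0.08, -0.04 and -0.05, and over all genes tested 0.01, -0.02 and -0.02, in the same order. The positive median slopes are thus not a steady rise with dose. These medians describe the families and carry no test.

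The grouping of 4 litters seen in Col3a1 and Lamb1 recurred. Vehicle replicate 1, 100 mg/kg/day replicate 1 and both 900 mg/kg/day litters were the 4 highest of the 14 for 9 of the 56 tested members (Col3a1, Col5a3, Col6a1, Col6a3, Lamc1, Itga4, Itga5, Itga9 and Itga11) and the 4 lowest for 3 (Col6a2, Col24a1 and Lamb1). Over all tested genes 23.5% had 1 of these 2 orders, so the families shared a pattern of the whole table at no more than its usual frequency. Summed CPM of the interstitial marker genes, all 10 measured and none at 0 in every library, moved with it: 872 in vehicle replicate 1, 944 in 100 mg/kg/day replicate 1 and 1026 and 1010 at 900 mg/kg/day. By group the sum ran from 757 to 872 in the vehicle litters, 680 to 944 at 100, 728 to 799 at 300 and 760 to 801 at 600 mg/kg/day. Peritubular myoid and smooth muscle markers, 9 of 10 measured, summed to 319 to 376 in the vehicle litters, 288 to 430 at 100, 374 to 420 at 300, 386 to 460 at 600 and 384 and 489 at 900 mg/kg/day. The part of either marker list in the members' values was not tested.

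Chains that join into 1 protein were compared across litters in 7 of the pairs fixed for this purpose. The pair of Itga6 with Itgb1 was not run, because Itga6 is not analysed here. Col4a1 and Col4a2, whose shared start region is printed above, had a Pearson r of 0.70 over 14 litters (permutation p = 0.00528, adjusted over the 7 pairs 0.0185) and a Spearman rho of 0.78 (permutation p = 0.00184, adjusted 0.0129). Without the 2 litters farthest from the Col4a1 median r was 0.75. Within the 10 litters outside the group of 4 it was 0.48 (permutation p = 0.154, adjusted 0.359), and from deviations within dose groups it was 0.66 (adjusted permutation p = 0.329), so the relation did not hold by test within either.

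Lamb1 and Lamc1 had a Pearson r of -0.84 over 14 litters (permutation p = 0.00038, adjusted 0.00266) and a Spearman rho of -0.66 (adjusted permutation p = 0.0427). The litters fell into 2 separate sets, so these values describe the gap between the sets and are not read as a relation within them. Within the 10 other litters r was -0.080 (permutation p = 0.826), and the remaining 4 are too few for a value. Col6a1 and Col6a2 also separated: within the 10 other litters their r was 0.56 (adjusted permutation p = 0.359), while the 4 remaining litters had high Col6a1 with low Col6a2. For Lama2 and Lamc1, of which Lamc1 separates the same 4 litters, r within the 10 was -0.21 (adjusted permutation p = 0.776). Over all 14 litters, where the 2 sets are mixed, the sign of both these pairs was the opposite, negative for Col6a1 with Col6a2 and positive for Lama2 with Lamc1. Col1a1 with Col1a2 gave r = 0.069 (permutation p = 0.814) and rho = 0.10 (permutation p = 0.725), and Lama5 with Lamb2 gave r = 0.32 (permutation p = 0.241, rho 0.56 with an adjusted permutation p of 0.0979). Itgav with Itgb5 gave r = -0.16 (permutation p = 0.573) and rho = -0.31 (permutation p = 0.272), with Itgav too low to pass the filter. In pairs with a thinly counted chain, such as Col1a1, Lama2, Lama5 or Itgav, a weak correlation says little.

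**Figure D5:**
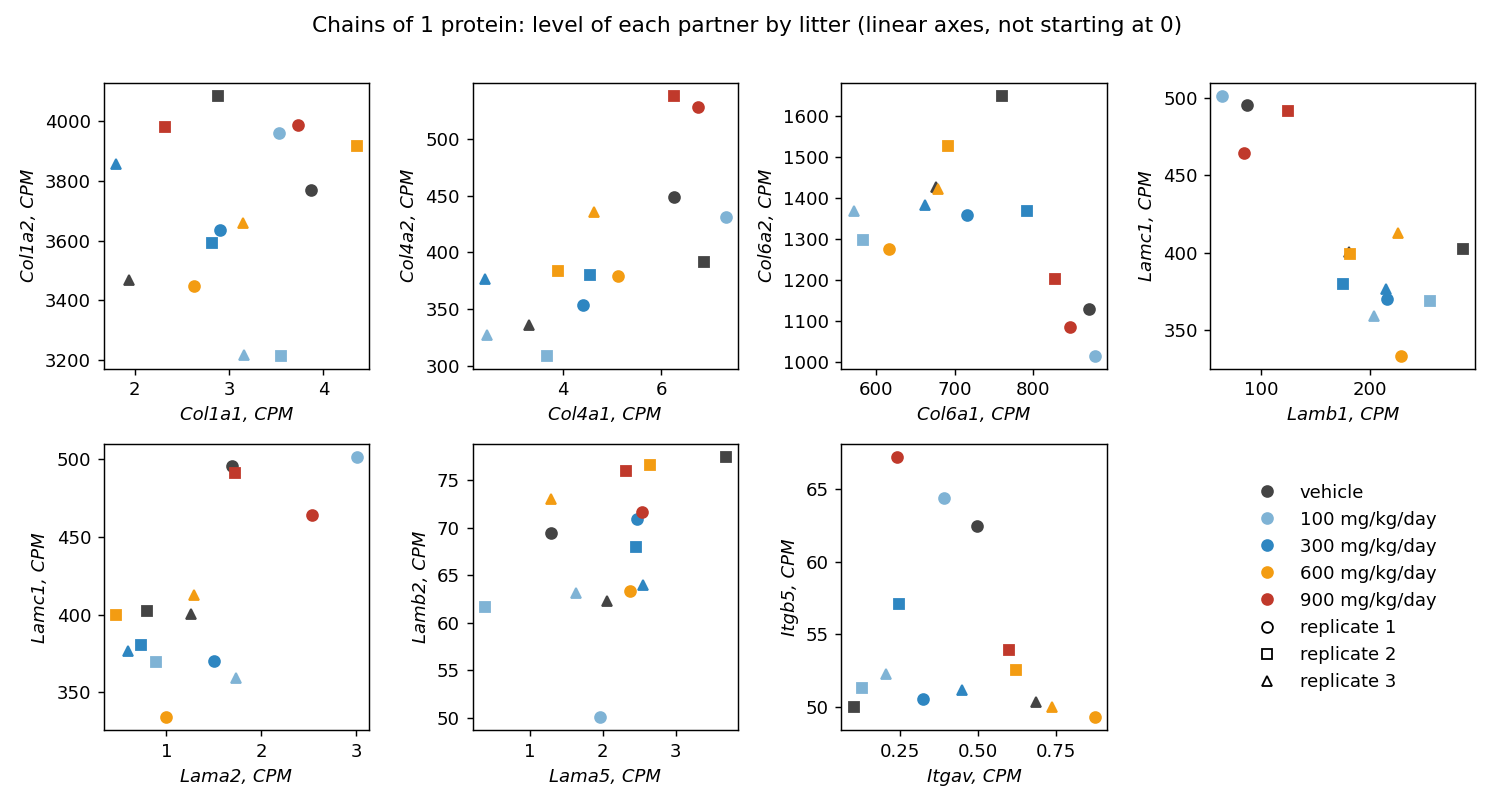
CPM of 7 pairs of chains, 1 chain on each axis (linear, not starting at 0); each point is a litter, the colour gives the dose and the marker the replicate. In the Lamb1 and Lamc1 panel 4 litters (vehicle replicate 1, 100 mg/kg/day replicate 1 and both at 900 mg/kg/day) lie at low Lamb1 and high Lamc1, apart from the other 10.

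Other genes of matrix synthesis and adhesion gave no call at 900 mg/kg/day or in the trend. The counts were 0 of 24 genes of collagen synthesis and cross-linking, 0 of 11 basement membrane partners and 0 of 20 interstitial matrix partners. They were 0 of 14 matrix proteases and inhibitors, 0 of 17 integrin adaptors and 0 of 9 other matrix receptors. Over all genes tested 0.252% passed at 900 mg/kg/day and 0.425% in the trend. Counts of 0 in lists this short therefore do not set them apart. The lowest adjusted trend p was 0.134, for Ntn4 (netrin 4, which binds laminin gamma chains), at 2.08, 4.58 and 2.86 CPM in the vehicle litters and 5.90 and 6.96 CPM at 900 mg/kg/day. Bgn (biglycan, a small proteoglycan that binds collagen) stood at 91.3, 98.05 and 90.2 CPM in the vehicle litters and at 115 and 114 CPM at 900 mg/kg/day, with an adjusted trend p of 0.180. Fbln2 (fibulin 2, of basement membranes and elastic fibres) stood at 15.8, 8.36 and 11.7 CPM in the vehicle litters and at 18.9 and 21.0 CPM at 900 mg/kg/day, with an adjusted trend p of 0.211. The 900 mg/kg/day litters of Bgn lay above every vehicle litter, as did those of Fbln2.

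Loxl1, an enzyme of collagen and elastin cross-linking, repeated the grouping of 4 litters: 44.7, 19.9 and 23.1 CPM in the vehicle litters, 63.0, 15.2 and 19.0 CPM at 100, 21.3 to 34.0 CPM at 300 and 600, and 63.6 and 65.6 CPM at 900 mg/kg/day. Nid2 (nidogen 2, which joins laminin to type IV collagen) stood at 56.6, 31.0 and 40.5 CPM in the vehicle litters, at 62.3, 24.5 and 39.1 CPM at 100, and at 71.3 and 69.2 CPM at 900 mg/kg/day. Bcam, a receptor for laminin alpha 5, stood at 51.8, 38.5 and 39.8 CPM in the vehicle litters and at 65.5 and 62.2 CPM at 900 mg/kg/day. Vcl (vinculin, which links integrins to actin) lay between 96.4 and 144 CPM in all litters. At 900 mg/kg/day against vehicle the median log2 difference of the basement membrane partners was 0.44 and that of the interstitial matrix partners was 0.12, beside 0.02 over all genes tested. The median was 0.02 for collagen synthesis and cross-linking, 0.14 for matrix proteases and inhibitors, 0.10 for integrin adaptors and 0.18 for the other matrix receptors.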

How the data were processed

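TempO-Seq libraries of 14 pooled litters were analysed. The authors deposited expected counts per gene without and with an attenuation adjustment, per the file headers; the unadjusted table was used, and none of the 16 adjusted genes is a member. The submitters' processing notes name STAR 2.7.8a, Partek, DESeq2 and build rn7, with no roles; why 24 members have counts that are not whole (tolerance 1e-09) is not given in the sources used here. Counts were rounded, filtered with filterByExpr by dose group, TMM scaled and tested with edgeR 4.0.16 (robust quasi-likelihood, dose group as the only term, 2-sided, Benjamini-Hochberg over 12719 genes, threshold 0.05), all 14 libraries in 1 fit with 9 residual degrees of freedom. The trend used dose in steps of 100 mg/kg/day. The biological coefficient of variation was 0.232. Correlations used log2 CPM (prior count 2) and 100000 permutations. Named genes were called members, the 8 smallest trend p per family and a fixed panel; estimates and values by litter are printed where the unadjusted trend p was under 0.05 or the litters stood apart, and the rest as values of some groups or as ranges. One tested gene is not reported here. Members and lists were chosen with earlier results of these data known. Sequences are from RefSeq (GRCr8), with entries for 63 of 79 members. Alternatives were DESeq2 1.42.0, other scaling and filters, the adjusted counts, 2-group fits, and leaving out litters. The method was tested on simulated data.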

Additional observations from a re-analysis of the deposited data

How the results depend on the processing

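No paired analysis was run, because each library stands for 1 litter at 1 dose. Replicate numbers are absent from the labels, and those used here only name litters. The counts of members called at 100, 300 and 600 mg/kg/day against vehicle were 0 under every setting run. At 900 mg/kg/day against vehicle the count went from 0 to 1 with DESeq2, and to 10 without the 2 litters that stood apart (replicate 1 of the vehicle and of the 100 mg/kg/day group). That setting also gave 10 between the 2 highest doses and 10 in the dose trend; by construction it takes away the 2 litters that resembled the 900 mg/kg/day litters. A fit of only the 600 and 900 mg/kg/day groups gave 10 members (7 higher, 3 lower) where 18% of all genes passed; the cause was not tested. The trend count of 1 became 0 with no filter on low counts (more genes tested) and 0 without the 900 mg/kg/day group, and leaving out 1 litter at a time gave 0 to 1. Scaling by library totals put the summed integrins at 900 mg/kg/day at 948 CPM, and the other family sums stayed within 1 SD under the settings run. Of 690 recomputed single-gene values for 31 gene estimates, 645 kept their direction and side of the threshold, 33 newly passed it, 12 no longer passed and 0 changed direction. The 31 were chosen from these same data, and only the Col14a1 slope among them passed with all 14 litters. All 12 losses were therefore of that slope. For the other estimates, keeping their side of the threshold means that they still did not pass, so the 645 do not measure robustness.

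Correlations between partner chains depended on the litters. Deviations from dose group means gave r = 0.66 for Col4a1 with Col4a2 and -0.81 for Lamb1 with Lamc1 (both with an adjusted permutation p of 0.329), -0.13 for Lama5 with Lamb2 and 0.073 for Itgav with Itgb5. The 10 litters outside the group of 4, a choice made after seeing the data, gave 0.48 for Col4a1 with Col4a2, -0.080 for Lamb1 with Lamc1, 0.56 for Col6a1 with Col6a2, -0.21 for Lama2 with Lamc1 and -0.057 for Col1a1 with Col1a2. Without the 2 litters that stood apart, Col1a1 with Col1a2 gave -0.017. The cause was not tested. Genes under about 30 counts per library, such as Col1a1, Col4a3 and Col22a1, are limited by depth, and 2 litters at 900 mg/kg/day limit every comparison with that dose.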
